A study of Mus musculus with 12 samples.

Results

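Collagen transcripts were examined in the ventral spinal cord of mouse embryos, over every gene whose symbol is Col, a number, the letter a and a further number, with nothing after. There were 44 such genes among the 45777 gene identifiers of the deposited tables, and they were divided by the place of the protein into 7 fibrillar collagens, 8 basement membrane collagens, 8 cartilage collagens and 21 other collagens. The tissue was ventral cord of E12.5 embryos (E, days of gestation), trimmed around the Hb9::GFP reporter, which motor neurons (MNs) express under the control of the Hb9 promoter. At the brachial (forelimb) and the lumbar (hindlimb) axial level, 3 libraries came from *Isl2* +/- embryos (heterozygotes) and 3 from *Isl2* -/- embryos (KO), so that every library carried at least 1 null *Isl2* allele and the reporter, and none was wild-type. *Isl2* is a LIM homeodomain transcription factor of postmitotic MNs, and the null allele replaces part of the gene's exons with a neomycin cassette in every cell of the embryo.

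Collagens are trimers of alpha chains, some built from 1 gene's product and others from the products of several genes. Chains are hydroxylated and folded in the endoplasmic reticulum, secreted, trimmed and crosslinked outside the cell. The fibrillar types I, III and V form the fibres of connective tissue, type IV forms the sheet of basement membranes around the neural tube and its blood vessels, and types II, IX and XI, which form or bind the same fibrils, are best known from cartilage and notochord, although type II is also made by the embryonic neuroepithelium. In the developing nervous system collagens are known as substrates for axons, as parts of the vessel wall and, for the transmembrane types XIII and XXV, as proteins of the muscle or neuron surface.

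Abundance is given as TPM (transcript abundance per gene length as a part of the library total), with each library rescaled by a size factor (median of ratios to the typical library, 0.899 to 1.24). The 12 libraries held 4.48 to 6.64 Gb of aligned bases, least in brachial KO replicate 3, and 22983 to 24191 genes above 0. A set of 5 abundant small structural RNAs took 23.7% to 38.2% of the deposited TPM. The labels were checked on 4 genes. *Hoxc10* was at 0 in every brachial library and at 25.8 to 49.1 TPM in the lumbar ones, *Hoxd10* at 0 to 0.025 and at 124 to 215 TPM, and *Hoxc8* at 131 to 185 TPM against 12.7 to 18.2 TPM. The tables give *Isl2* by gene and not by exon, and it was at 8.36 to 9.67 TPM in brachial heterozygotes and 4.52 to 7.34 TPM in brachial KO libraries, and at 8.43 to 10.3 TPM and 6.48 to 8.26 TPM in the lumbar ones, lower in KO at both axial levels without overlap. Brachial KO replicate 3 stood apart in genes outside the collagens, with the highest *Sox9* (20.7 TPM, against 5.41 to 15.4 TPM elsewhere) and *Fn1* (17.7 TPM, against 5.56 to 15.8 TPM). In the same library 7 erythroid markers summed to 6546 TPM, against 2162 to 4625 TPM elsewhere.

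The results below turn on differences between axial levels in the type IX chain gene *Col9a2* and in *Col6a2* and *Col18a1*. *Col6a2* and *Col18a1* lie 429 kb apart on chromosome 10, with *Col6a1* between them, and differed in opposite directions. The 250 bases before the annotated starts of *Col9a2*, *Col6a2* and *Col18a1* are printed for that reason. They are from the RefSeq annotation of GRCm38.p6, read 5′ to 3′ along the gene, at chr4:121039316-121039565 on the plus strand for *Col9a2*, chr10:76623631-76623880 on the minus strand for *Col6a2*, and chr10:77166531-77166780 on the minus strand for *Col18a1*. For *Col6a2* and *Col18a1* RefSeq gave a further start each inside the gene, and the window of the outermost start is shown; the window not shown held GGGCGG and no CCAAT for *Col6a2*, and neither for *Col18a1*. Capitals mark GGGCGG (a GC box) and CCAAT on either strand, 2 of the 4 motifs searched.
Col9a2: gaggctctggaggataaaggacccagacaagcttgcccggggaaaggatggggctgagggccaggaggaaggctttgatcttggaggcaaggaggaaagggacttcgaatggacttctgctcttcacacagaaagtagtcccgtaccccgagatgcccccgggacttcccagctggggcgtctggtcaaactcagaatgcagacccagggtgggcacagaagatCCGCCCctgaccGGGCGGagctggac
Col6a2: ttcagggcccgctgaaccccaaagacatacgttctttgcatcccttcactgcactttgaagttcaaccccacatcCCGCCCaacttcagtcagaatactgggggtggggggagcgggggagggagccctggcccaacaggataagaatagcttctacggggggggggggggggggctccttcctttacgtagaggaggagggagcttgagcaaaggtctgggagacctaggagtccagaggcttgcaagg
Col18a1: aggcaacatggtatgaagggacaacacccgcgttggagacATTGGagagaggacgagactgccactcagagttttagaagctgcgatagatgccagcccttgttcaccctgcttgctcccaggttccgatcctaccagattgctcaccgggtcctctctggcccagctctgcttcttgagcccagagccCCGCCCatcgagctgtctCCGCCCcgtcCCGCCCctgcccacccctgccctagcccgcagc
The other 2 motifs, TATAAA and ACAATG (a core recognised by SOX factors), had no match in these windows. Matches were counted on both strands, and a base could belong to more than one match. Over the 38 windows that RefSeq entries gave for 35 of the 44 collagen genes, GGGCGG was in 57.9%, against 32.7% of 32851 windows of the same length over all genes, CCAAT in 34.2% against 33.8%, TATAAA in 13.2% against 12.4%, and ACAATG in 2.63% against 10.7%. The median GC content was 59% for collagens and 52.4% for all. A match is a run of letters and not a binding site, and windows of a gene with several entries can overlap.

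The collagen transcripts of this tissue came mostly from basement membrane and cartilage genes. Summed over the 44 genes, abundance was 202 to 246 TPM per library. Basement membrane collagens made up 41.7% ± 2.95 of it (SD, n = 12), cartilage collagens 31.9% ± 3.06, other collagens 15.3% ± 1.40 and fibrillar collagens 11.2% ± 1.60. The fibril-forming *Col2a1* and its type XI partners were counted as cartilage collagens, so the fibrillar share leaves them out. The single gene *Col4a1* made up 20.1%, and with *Col2a1*, *Col18a1* and *Col4a2* it reached 53.7%. By mean TPM over the libraries, 8 genes were at 10 or above, 16 between 1 and 10, 4 between 0.5 and 1 (*Col8a2*, *Col23a1*, *Col6a1* and *Col27a1*) and 16 below 0.5. Genes with a mean under 0.5 TPM over the libraries of a comparison were left out of its test, so that *Col19a1*, with a mean of 0.404 TPM over all libraries and 0.596 TPM over the brachial ones, was tested only for genotype at the brachial level.

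**Figure D1:**
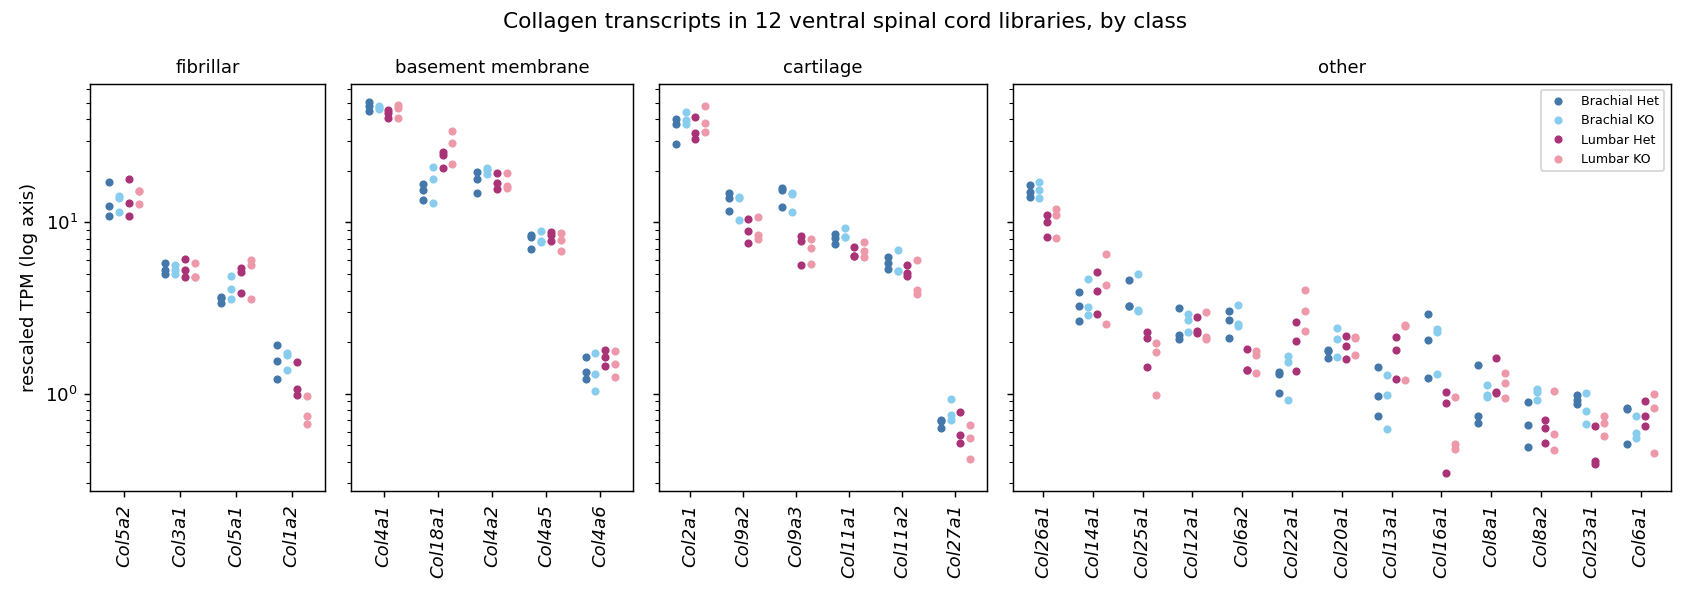
Rescaled TPM on a log axis of the 28 collagen genes with a mean of at least 0.5 TPM, in panels by class and ordered by mean; each point is a library, coloured by axial level and genotype. *Col4a1* lies between 40.4 and 50.3 TPM in all libraries, while the lumbar points lie below the brachial ones for *Col9a3*, *Col26a1*, *Col25a1*, *Col6a2* and *Col16a1*.

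Among basement membrane collagens, *Col4a1* and *Col4a2*, whose products form the common alpha1-alpha1-alpha2 trimer of type IV, were both abundant. *Col4a1* was at 50.3, 48.1 and 44.9 TPM in brachial heterozygotes, 48.0, 47.0 and 46.2 in brachial KO, 45.5, 40.7 and 43.5 in lumbar heterozygotes and 48.2, 46.7 and 40.4 in lumbar KO libraries. The genotypes overlapped at both axial levels. *Col4a2* was at 14.8 to 20.9 TPM, and the ratio of *Col4a2* to *Col4a1* was 0.330 to 0.453 over the libraries. Both genes lie head to head on chromosome 8, *Col4a1* at chr8:11198423-11312889 on the minus strand and *Col4a2* at chr8:11312805-11449287 on the plus strand, and their first 85 bases overlap. The use of strand in the authors' abundance estimates is not given in the sources used here, so reads in that stretch could go to either gene. *Col18a1*, the source of endostatin, was at 12.9 to 34.0 TPM. *Col4a5* and *Col4a6*, whose starts are 1.275 kb apart on the X chromosome and which make a type IV network of other basement membranes, were at 6.84 to 8.96 and 1.03 to 1.80 TPM. *Col4a3* and *Col4a4*, the chains of the glomerular membrane, were at most 0.125 TPM, and *Col15a1* was at 0.202 to 0.557 TPM.

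Cartilage collagens were present with little of the other products of cartilage. *Col2a1*, the fibril-forming chain of type II, was at 40.2, 37.5 and 28.7 TPM in brachial heterozygotes, 44.0, 39.4 and 37.7 in brachial KO, 41.2, 33.5 and 30.6 in lumbar heterozygotes and 47.8, 38.0 and 33.8 in lumbar KO libraries, with overlap of all groups. Its partners *Col11a1* and *Col11a2*, chains of type XI, were at 6.28 to 9.33 and 3.82 to 6.91 TPM. Of the type IX chains, which decorate type II fibrils as a trimer of alpha1, alpha2 and alpha3, *Col9a2* (7.56 to 14.9 TPM) and *Col9a3* (5.61 to 15.8 TPM) were abundant, whereas *Col9a1* was at 0 to 0.379 TPM. *Col27a1* was at 0.418 to 0.928 TPM, and *Col10a1*, the marker of hypertrophic cartilage, was at 0 in 11 of 12 libraries. Among 10 genes of cartilage matrix only *Cnmd* (chondromodulin) had a mean over 0.5 TPM, and *Acan* (aggrecan), *Matn1* and *Comp* were at most 0.138, 0.0635 and 0.0902 TPM. The sclerotome factors *Pax1*, *Pax9* and *Nkx3-2* were at most 0.0547, 0.134 and 0.106 TPM. *Sox9*, *Sox5* and *Sox6*, which cartilage shares with neural progenitors and glia, were at 5.41 to 20.7, 3.56 to 6.66 and 7.75 to 19.7 TPM.

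Of the fibrillar collagens, the type I chains of bone, skin and meninges were scarce. *Col1a1* was at 0 to 0.411 TPM and *Col1a2*, which joins it in the type I trimer, at 0.665 to 1.92 TPM. *Col5a2* (10.9 to 17.9 TPM), *Col3a1* (4.78 to 6.10 TPM) and *Col5a1* (3.36 to 6.01 TPM) carried most of the class, and *Col5a3* and *Col24a1* were at most 0.303 and 0.335 TPM. *Col3a1* and *Col5a2* are neighbours on chromosome 1, 24.6 kb apart on opposite strands.

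Of the 21 other collagens, *Col26a1*, which encodes a secreted protein with an EMI domain, was the most abundant at 8.15 to 17.3 TPM. The fibril-associated *Col14a1*, *Col12a1*, *Col22a1*, *Col20a1* and *Col16a1* had means of 1.36 to 3.83 TPM, and the transmembrane *Col25a1*, *Col13a1* and *Col23a1* means of 0.720 to 2.73 TPM. Type VI, a beaded filament of alpha1, alpha2 and alpha3, was uneven. *Col6a2* was at 1.32 to 3.28 TPM and *Col6a1* at 0.451 to 1 TPM, while *Col6a3* was at 0.0641 to 0.188 TPM and the clustered chromosome 9 genes *Col6a4*, *Col6a5* and *Col6a6* were at most 0.231, 0.144 and 0.0537 TPM. The network chains *Col8a1* and *Col8a2* had means of 1.08 and 0.748 TPM. *Col19a1*, *Col7a1*, *Col17a1* and *Col28a1* had means under 0.5 TPM.

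Of the collagens tested, 11 differed between the axial levels, most of them lower in the lumbar cord. In a limma fit of log2(TPM + 0.1) over all 12 libraries with genotype as a term, 28 collagen genes were tested; 8 were lower and 3 higher there than in the brachial cord at a Benjamini-Hochberg adjusted p under 0.05. Over the 16709 genes tested, 10.1% were lower and 8.79% higher by the same rule, 18.9% in all. At an unadjusted p under 0.05, 13 of the 28 collagens and 32.4% of all genes passed. The median difference, lumbar minus brachial, was −0.09 on the log2 scale over the 28 collagens and 0.01 over all genes. The difference of collagens from genes at large was itself not tested. Of the 28, 5 did not overlap between the levels, all lower in the lumbar cord (*Col16a1*, *Col25a1*, *Col9a3*, *Col6a2* and *Col26a1*), where 4.84% of all genes were lower and 3.48% higher without overlap. Percentages and folds given for single genes below come from the fitted log2 difference and not from the medians beside them. The collagens that passed lay on chromosomes 2, 3, 4, 5, 6, 10 and 15. In bulk tissue, fewer cells of a type and less RNA per cell cannot be told apart.

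**Figure D2:**
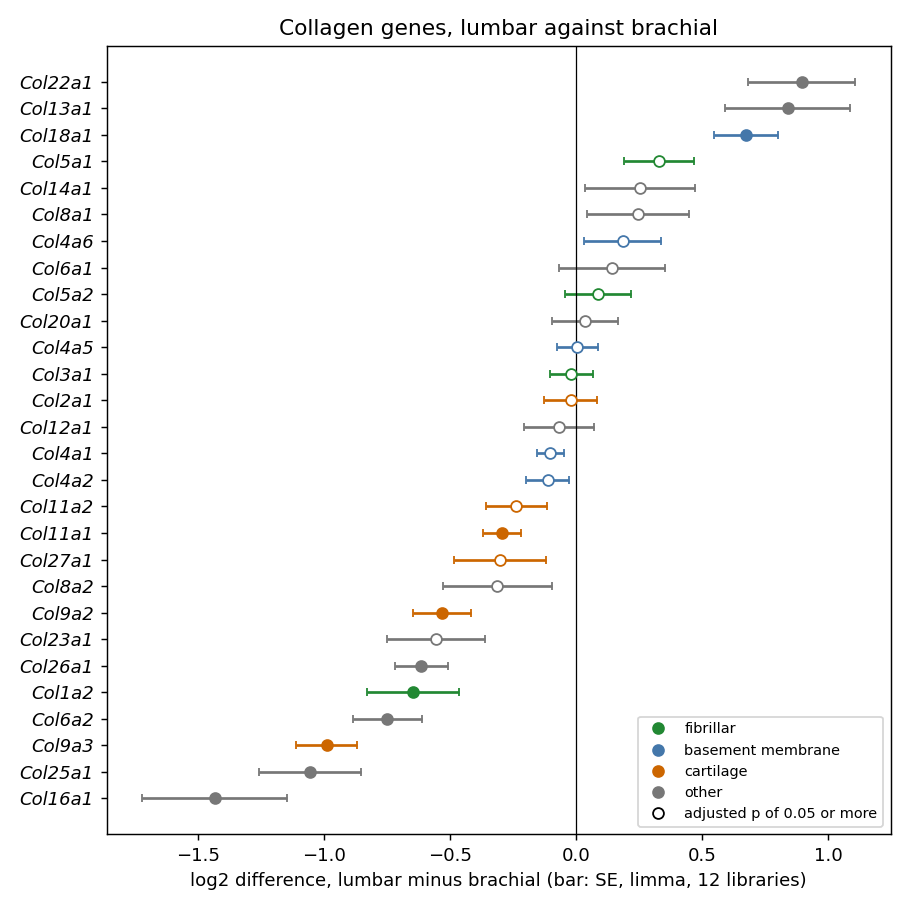
The log2 difference of each tested collagen gene between lumbar and brachial cord (x axis, 12 libraries) with its SE as a bar, coloured by class; filled points have an adjusted p under 0.05. The 11 filled points run from −1.43 for *Col16a1* to 0.89 for *Col22a1*, and *Col2a1*, *Col3a1*, *Col4a1*, *Col4a2* and *Col4a5* lie near 0.

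The cartilage class accounted for 3 of the lower genes, *Col9a3*, *Col9a2* and *Col11a1*. *Col9a3* (chr2:180598102-180622185) was at 11.5 to 15.8 TPM with a median of 14.8 in the 6 brachial libraries, and at 5.61 to 8.30 TPM with a median of 7.45 in the 6 lumbar ones. Its lumbar abundance was 49.6% lower (log2 difference −0.99 ± 0.12 SE, limma adjusted p = 0.000305), and the axial levels did not overlap. *Col9a2* (chr4:121039566-121055325), whose upstream sequence is given above, went from a median of 13.9 TPM (10.3 to 14.9) to a median of 8.71 TPM (7.56 to 10.8). It was 30.8% lower (−0.53 ± 0.11 SE, limma adjusted p = 0.00728), with overlap between the highest lumbar and the lowest brachial libraries. *Col11a1* (chr3:114030479-114220756) had medians of 8.24 TPM (7.48 to 9.33) and 6.58 TPM (6.28 to 7.71), with a fitted fall of 18.5% (−0.29 ± 0.07 SE, limma adjusted p = 0.0161). The log2 differences of *Col11a2* (−0.24 ± 0.12 SE, adjusted p = 0.199) and *Col27a1* (−0.30 ± 0.18 SE, adjusted p = 0.279) did not pass. *Col2a1*, the main fibril chain, had medians of 38.6 TPM brachially and 35.9 TPM in the lumbar cord, and its difference of −0.02 had a 95% interval of −0.25 to 0.21.

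The balance of chains was followed as 6 ratios within a collagen type. Each was compared between the levels by permuting the 12 libraries freely, without regard to genotype. If the levels share embryos, which no label shows, that pairing was ignored and the p-values rest on an independence that fails. The ratio of *Col9a3* to *Col9a2* was 1.04 to 1.11 in the 6 brachial libraries and 0.716 to 0.927 in the 6 lumbar ones, without overlap (log2 difference −0.46, two-sided exact permutation p = 0.00216, the smallest that 6 against 6 allows, adjusted p = 0.00649 over these 6). The ratio of *Col6a1* to *Col6a2* was 0.180 to 0.301 in brachial and 0.342 to 0.599 in lumbar libraries, again without overlap (0.95, exact permutation p = 0.00216, adjusted p = 0.00649). The other ratios overlapped. The log2 difference was −0.01 for *Col4a2* to *Col4a1* (exact permutation p = 0.898), 0.19 for *Col4a6* to *Col4a5* (exact permutation p = 0.152), 0.06 for *Col11a2* to *Col11a1* (exact permutation p = 0.695) and 0.25 for *Col5a1* to *Col5a2* (exact permutation p = 0.251), with adjusted p-values of 0.303 to 0.898. The type IV, XI and V pairs other than *Col4a2* to *Col4a1* were chosen after values had been seen, and the type IX and type VI ratios restate, each as 1 value, the differences of single genes already given by the fit: unequal falls of *Col9a3* and *Col9a2*, and a fall of *Col6a2* beside the 0.14 ± 0.21 SE of *Col6a1*.

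**Figure D3:**
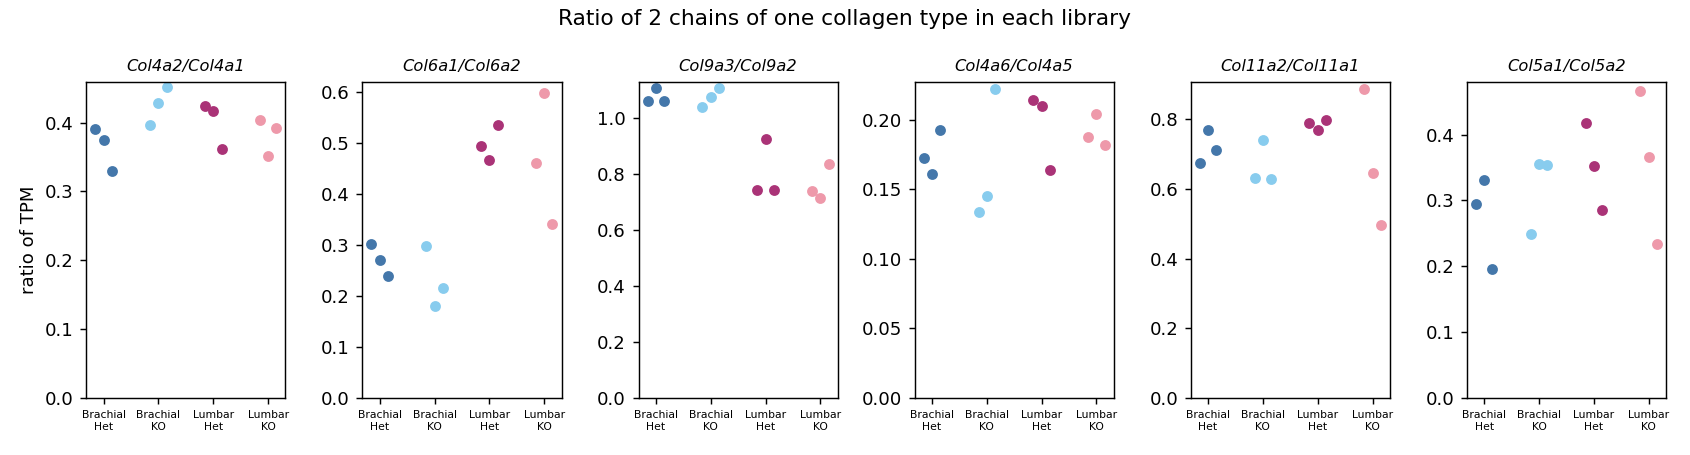
The ratio of the TPM of 2 chain genes of one collagen type in each library (y axis, from 0), by axial level and genotype, 3 libraries per group. The ratio of *Col9a3* to *Col9a2* is 1.04 or more in every brachial library and at most 0.927 in every lumbar one, and that of *Col6a1* to *Col6a2* is at most 0.301 brachially and at least 0.342 in the lumbar cord.

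In the basement membrane class, *Col18a1* was higher in the lumbar cord and none of the 4 tested type IV genes passed. *Col18a1* (chr10:77052178-77166530) was at 12.9 to 21.0 TPM (median 16.1) in brachial and 20.7 to 34.0 TPM (median 25.2) in lumbar libraries, 1.60-fold higher (0.67 ± 0.13 SE, limma adjusted p = 0.00370), with overlap only of the highest brachial and the lowest lumbar library. The intervals of the type IV differences were narrow for *Col4a1* (−0.22 to 0.01), *Col4a2* (−0.30 to 0.07) and *Col4a5* (−0.17 to 0.18) and wider for *Col4a6* (−0.15 to 0.52). As a class, basement membrane collagens summed to 92.4 ± 4.52 TPM (SD, n = 6) in brachial and 97.6 ± 9.10 TPM in lumbar libraries, and their share of the collagen total was 39.2% ± 1.53 and 44.1% ± 1.44. Cartilage collagens summed to 80.2 ± 8.21 and 66.1 ± 8.83 TPM, fibrillar ones to 24.6 ± 1.87 and 26.1 ± 3.40 TPM, and the others to 38.7 ± 2.90 and 31.2 ± 2.06 TPM, the only class whose libraries did not overlap between the levels (35.5 to 43.0 against 28.6 to 34.4 TPM). These sums were not tested.

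Of the 4 tested fibrillar collagens, *Col1a2* was lower in the lumbar cord. *Col1a2* (chr6:4505618-4541543) had a median of 1.62 TPM (1.22 to 1.92) in brachial and 0.979 TPM (0.665 to 1.52) in lumbar libraries (−0.65 ± 0.18 SE, limma adjusted p = 0.0266), and the levels overlapped. This call was lost when any of 6 of the 12 libraries was left out, and the adjusted p ranged from 0.0146 to 0.0673. Among these 6, the adjusted p was 0.0563, 0.0673 and 0.0501 without brachial heterozygote replicate 1, brachial KO replicate 2 and brachial KO replicate 3, and 0.0533, 0.0549 and 0.0580 without lumbar heterozygote replicate 2, lumbar KO replicate 1 and lumbar KO replicate 3. *Col5a1* had medians of 3.64 TPM in brachial and 5.26 TPM in lumbar libraries, and its difference of 0.33 ± 0.14 SE did not pass (adjusted p = 0.123). The log2 differences of *Col5a2* (0.09) and *Col3a1* (−0.02) were within their SE.

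The other collagens held the extremes in both directions. *Col16a1* (chr4:130047817-130099277), which associates with fibrils of several tissues, had a median of 2.16 TPM (1.24 to 2.91) in brachial and 0.697 TPM (0.345 to 1.02) in lumbar libraries. It was 63.0% lower (−1.43 ± 0.29 SE, limma adjusted p = 0.00501) without overlap. *Col25a1* (chr3:130180358-130599884), a transmembrane collagen of neurons that is required in MNs for muscle innervation, had medians of 3.25 TPM (3.05 to 5.01) and 1.85 TPM (0.985 to 2.29), with a fitted fall of 51.9% (limma adjusted p = 0.00386), without overlap. *Col6a2* (chr10:76595756-76623630) had medians of 2.62 TPM (2.13 to 3.28) and 1.53 TPM (1.32 to 1.83), with a fitted fall of 40.5% (−0.75 ± 0.14 SE, limma adjusted p = 0.00316), without overlap. Its partner *Col6a1*, 85.2 kb away on the same strand, had medians of 0.665 and 0.779 TPM, with a difference of 0.14 ± 0.21 SE. *Col26a1* (chr5:136741759-136883376) had medians of 15.2 TPM (13.9 to 17.3) and 10.6 TPM (8.15 to 12.01), with a fitted fall of 34.7% (−0.61 ± 0.10 SE, limma adjusted p = 0.00230), without overlap.

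Higher in the lumbar cord were *Col22a1* and *Col13a1*, both known from the muscle and its junctions. *Col22a1* (chr15:71795795-72150979), a component of tissue junctions such as that of muscle and tendon, had medians of 1.32 TPM (0.915 to 1.65) and 2.47 TPM (1.36 to 4.05), with a fitted rise of 1.86-fold (0.89 ± 0.21 SE, limma adjusted p = 0.0119), with overlap of the lowest lumbar library. *Col13a1* (chr10:61838234-61979206), a transmembrane collagen of the neuromuscular junction, had medians of 0.974 TPM (0.621 to 1.43) and 1.97 TPM (1.20 to 2.52), with a difference of 0.84 ± 0.25 SE (limma adjusted p = 0.0328). That call was lost without any of 7 libraries, at adjusted p-values of 0.0536 and 0.0799 without brachial heterozygote replicates 1 and 2, 0.0564 and 0.0770 without brachial KO replicates 1 and 2, 0.0770 without lumbar heterozygote replicate 3, and 0.0703 and 0.0763 without lumbar KO replicates 1 and 2. *Col23a1*, the remaining tested transmembrane member, had medians of 0.890 and 0.609 TPM (−0.56 ± 0.19 SE, adjusted p = 0.0653). *Col19a1* was under the limit for testing between the levels, at 0.360 to 0.811 TPM in brachial and 0.0990 to 0.289 TPM in lumbar libraries.

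**Figure D4:**
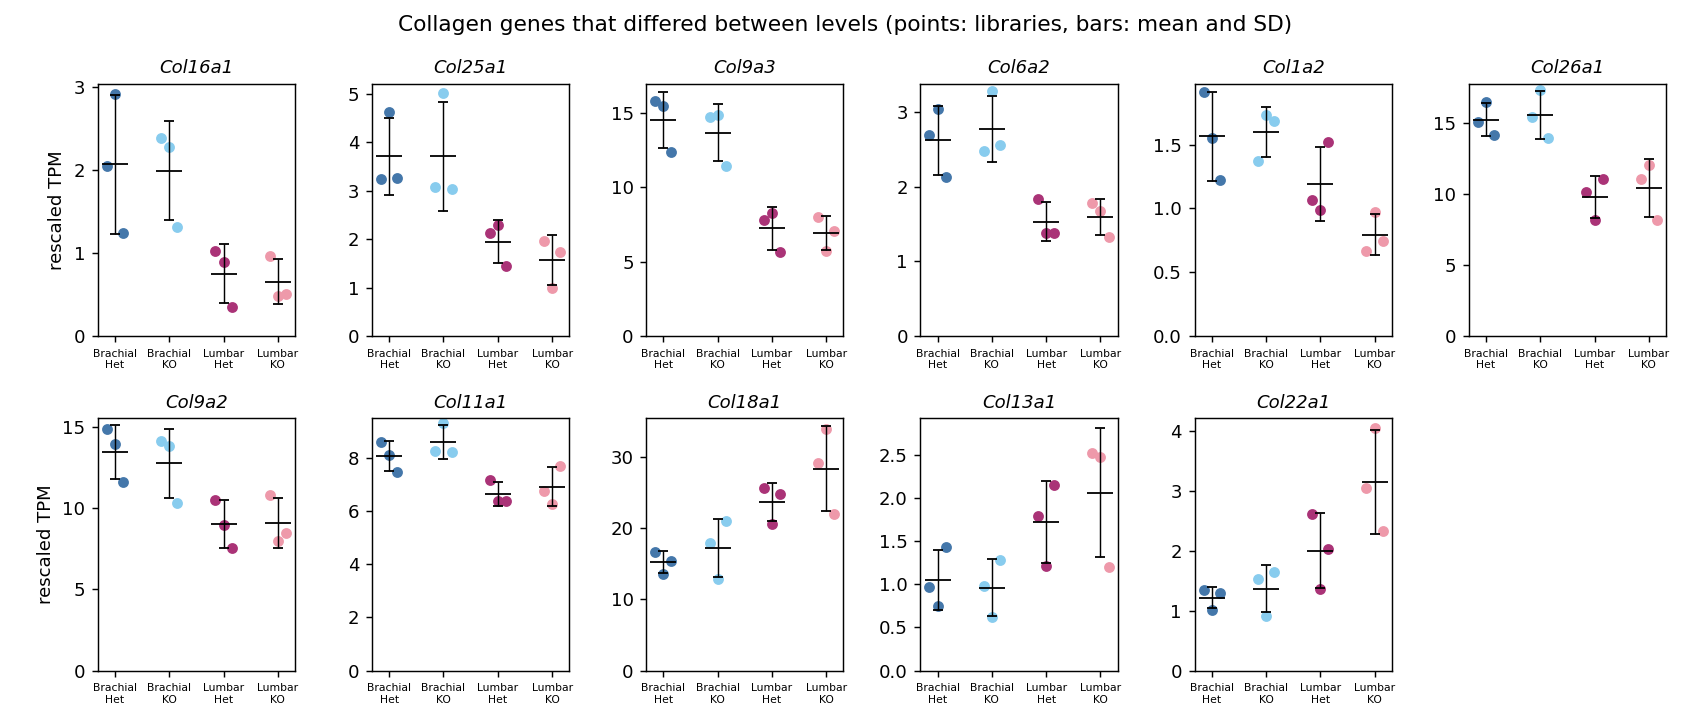
Rescaled TPM (y axis, from 0) of the 11 collagen genes that passed between axial levels, ordered by difference, with each library as a point and the mean and SD of each group of 3 as bars. Both genotypes of the lumbar cord lie on the same side of their brachial counterparts by mean in every panel.

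Within single genotypes, with 3 libraries against 3, all 11 differences had the same sign. The sizes were less alike for *Col1a2* (−0.37 in heterozygotes and −0.93 in KO) and *Col22a1* (0.64 and 1.15), and neither gene passed in either genotype alone. In heterozygotes *Col9a3* (−1.01, limma adjusted p = 0.0271), *Col26a1* (−0.64, limma adjusted p = 0.0435) and *Col18a1* (0.63, limma adjusted p = 0.0321) passed, and in KO libraries *Col9a3* (−0.97, limma adjusted p = 0.0426) passed. *Col9a3* was thus the only collagen that passed in each genotype taken alone.

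Marker genes of several cell types moved between the axial levels as well, and their counts stand beside the 10.1% of all genes that were lower and the 8.79% that were higher. Of 7 tested mural cell markers, 6 were lower in the lumbar cord (*Pdgfrb*, *Rgs5*, *Kcnj8*, *Abcc9*, *Cspg4* and *Vtn*), and the list of 8 summed to 121 to 137 TPM in brachial and 84.4 to 98.8 TPM in lumbar libraries. Of 10 endothelial markers 5 were lower (84.5 to 111 against 70.8 to 86.4 TPM summed), of 6 microglia markers 4 (13.8 to 24.4 against 7.08 to 13.8 TPM), and both tested mesenchyme markers, *Pdgfra* and *Foxc1* (2.69 to 6.37 against 2.23 to 2.82 TPM over 13 markers, of which *Tcf21* was at 0 throughout and *Osr1*, *Alx4* and *Twist2* were at most 0.0341, 0.0635 and 0.108 TPM). Of 5 tested Schwann cell and crest markers 2 were lower, *Erbb3* and *Fabp7*, and the 7 of the list summed to 1452 to 2328 against 1177 to 1693 TPM. Of 7 progenitor markers, 5 were higher in the lumbar cord (*Sox2*, *Nes*, *Hes5*, *Vim* and *Nkx6-1*) and *Olig2* was lower, and the list of 7 summed to 811 to 1034 TPM in brachial and 1067 to 1370 TPM in lumbar libraries. Of 6 skeletal muscle markers 1 was abundant enough to test and did not pass (0.68, adjusted p = 0.0575), and the list summed to 1.26 to 2.26 TPM in brachial and 1.87 to 5.07 TPM in lumbar libraries. Of 6 MN markers, *Prph* (peripherin, an intermediate filament) was lower without overlap, at 227 to 319 against 30.8 to 76.5 TPM (−2.62, limma adjusted p = 1.67e-07). The other MN markers did not pass, 4 of them above and 1 below 0. With *Prph* included, the list summed to 442 to 510 against 211 to 331 TPM without overlap, and that sum is not independent of *Prph*. Of 5 general neuron markers *Snap25* was lower (−0.45, limma adjusted p = 0.000415), and 0 of 5 sensory ganglion, 0 of 5 floor plate and 0 of 7 erythroid markers passed. The part of these cell types in the collagen differences was not tested.

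Genes that make, modify, bind and degrade collagens were followed from lists of their own, against the same shares of all genes (10.1% lower and 8.79% higher). For the modification, crosslinking and receptor lists the counts were near or below these shares. Of 20 tested genes of chain modification, folding and export, 1 was lower in the lumbar cord, *Sec24d*, part of the coat that exports procollagen (−0.88, limma adjusted p = 0.00274), and none was higher. The collagen chaperone *Serpinh1* was at 98.0 to 119 TPM, and the folding enzymes *Ppib* and *P4hb* at 249 to 360 and 198 to 249 TPM. Of 11 processing and crosslinking genes, 1 was higher, the lysyl oxidase *Loxl2* (0.65, limma adjusted p = 0.0176). *Lox* itself was at most 0.122 TPM, and *Pxdn*, the peroxidase that crosslinks type IV, was at 37.5 to 52.0 TPM. Of 8 receptors, the type IV-binding integrin chain *Itga1* was lower (−0.29, limma adjusted p = 0.0236), while *Ddr1*, a receptor kinase for collagens, was at 41.3 to 59.9 TPM and *Ddr2* at 0.142 to 0.543 TPM. Of 6 tested proteases, *Mmp2* (−0.71), *Mmp9* (−1.80) and *Ctsk* (−0.58) were lower and the membrane-bound *Mmp14* was higher (0.37), at limma adjusted p-values of 0.0170, 0.00436, 0.00305 and 0.00200. Of 13 laminins and other basement membrane genes, *Lama3*, *Lama4*, *Lamb1* and *Lamc3* were lower and none higher. Of 6 fibril-associated matrix genes, *Fbn2* was higher, and *Dcn* and *Eln* were lower. *Cnmd*, the 1 cartilage matrix gene of 10 that could be tested, was higher in the lumbar cord without overlap, at 0.192 to 1.04 against 1.90 to 6.12 TPM (95% interval of the log2 difference 1.26 to 2.74, limma adjusted p = 0.00232), and that list summed to 1.04 to 1.60 against 2.51 to 6.84 TPM. Of 4 tested sclerotome and cartilage markers, *Sox6* was higher (0.42, limma adjusted p = 0.0403) with overlap, and all 4 differences were above 0. The 6 tested cartilage collagens had differences below 0.

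For the question of whether loss of *Isl2* altered collagen expression, KO and heterozygote libraries were compared within each axial level, 3 against 3. The study called lower genes at a log2 fold change more than 0.5 below 0 with an unadjusted p under 0.05. With that threshold of the study applied here in both directions, 0 of the 29 collagens tested at the brachial level and 0 of the 28 tested at the lumbar level passed in limma. Of all genes, 3.11% passed at the brachial level (2.29% higher and 0.822% lower) and 1.79% at the lumbar level (0.992% higher and 0.800% lower). At an unadjusted p under 0.05 alone, 0 collagens passed at either level, where 14% and 4.87% of all genes did. At an adjusted p under 0.05, 0 collagens passed, with 1 of 16780 genes (0.00596%) in the brachial and 0 of 16625 in the lumbar comparison. The median log2 fold change of the collagens, KO minus heterozygote, was 0.04 brachially and 0.03 in the lumbar cord, and that of all genes was −0.0031 and −0.0057.

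**Figure D5:**
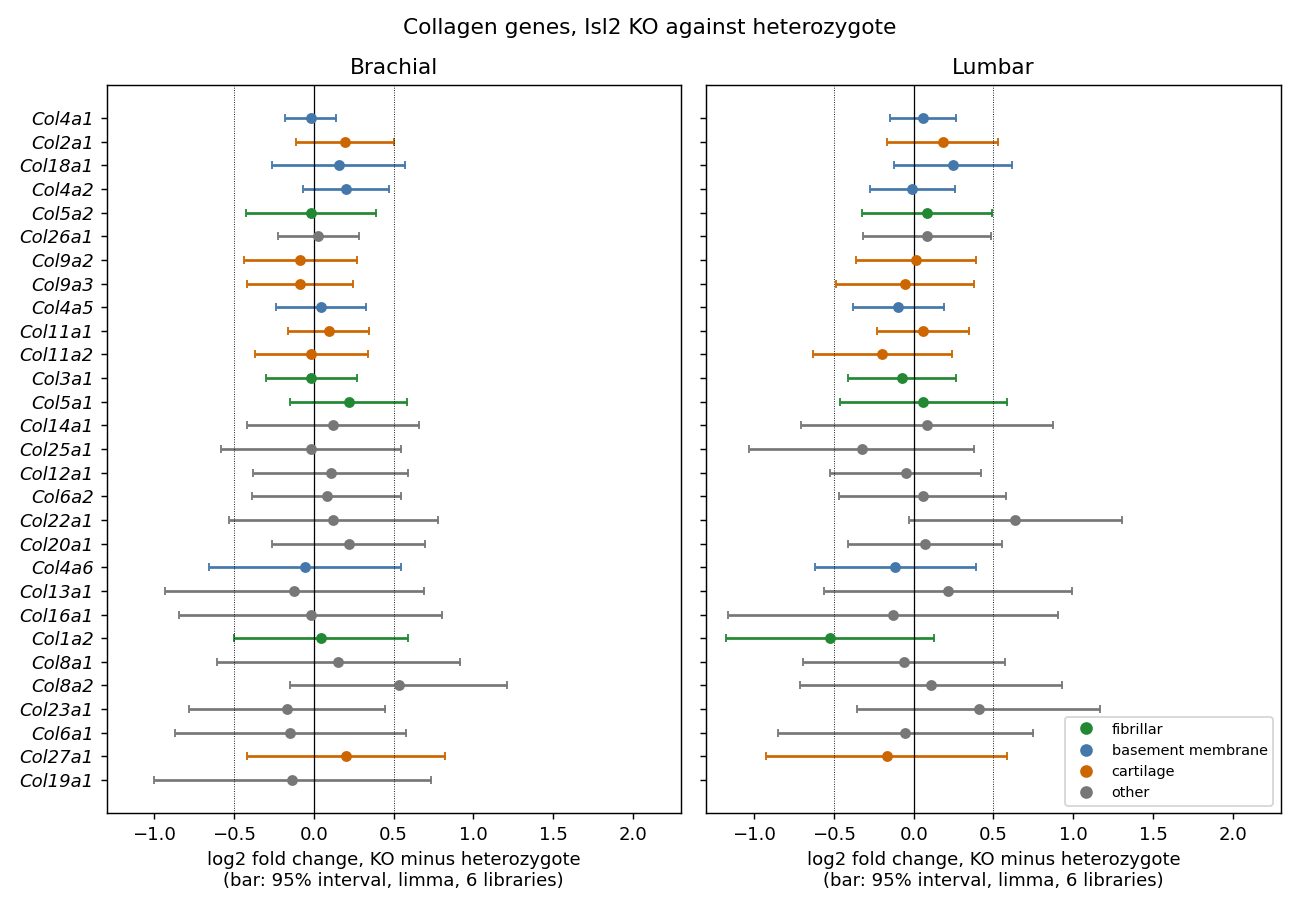
The log2 fold change of each tested collagen gene, KO minus heterozygote, at the brachial and the lumbar level (x axis, 6 libraries each) with its 95% interval as a bar; genes are ordered by abundance and dotted lines mark 0.5 on either side. All intervals include 0, and they widen from *Col4a1* at the top to the least abundant genes.

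The precision of these comparisons fell with abundance. For 10 of 29 brachial and 9 of 28 lumbar tests the 95% interval of the fold change lay within 0.5 on either side of 0 on the log2 scale, and these included *Col4a1* (−0.18 to 0.14 brachial, −0.15 to 0.26 lumbar), *Col4a2* (−0.07 to 0.47 and −0.28 to 0.26), *Col9a2* (−0.44 to 0.27 and −0.37 to 0.39) and *Col26a1* (−0.23 to 0.28 and −0.32 to 0.49). For *Col2a1* the fold changes were 0.20 and 0.18, with intervals of −0.11 to 0.51 and −0.17 to 0.53. For the rest, a change of that size could not be told from none at this number of libraries.

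Among the tested collagens, the genotypes did not overlap in 1 at each level. Of those under the limit for testing, *Col24a1* in the brachial cord and *Col9a1*, *Col4a4* and *Col6a6* in the lumbar cord did not overlap either, all at 0.245 TPM or less. *Col8a2*, a network collagen of corneal and vessel matrix, was at 0.658, 0.890 and 0.487 TPM in brachial heterozygotes and at 1.06, 0.924 and 1.02 TPM in brachial KO libraries, with a fold change of 0.53 ± 0.29 SE (limma adjusted p = 0.399). At the brachial level 10% of all genes were higher and 10.2% lower without overlap. In the lumbar cord *Col8a2* was at 0.629, 0.701 and 0.512 TPM in heterozygotes and 1.04, 0.585 and 0.472 TPM in KO libraries, which overlapped. *Col1a2* was at 1.07, 0.986 and 1.52 TPM in lumbar heterozygotes and 0.665, 0.972 and 0.745 TPM in lumbar KO libraries, all lower (−0.52 ± 0.28 SE, limma adjusted p = 0.999). At the lumbar level 4.49% of genes were higher and 5.46% lower without overlap. *Col1a2* is on the study's list of genes lower in the lumbar KO cord, which was drawn from these same libraries, so its direction here is not independent evidence. In the brachial cord it was at 1.92, 1.56 and 1.22 TPM in heterozygotes and 1.37, 1.74 and 1.68 TPM in KO libraries (0.04 ± 0.23 SE).

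The largest fold change of a tested collagen was that of *Col22a1* in the lumbar cord, where it was at 2.61, 1.36 and 2.03 TPM in heterozygotes and 3.05, 4.05 and 2.33 TPM in KO libraries (0.64 ± 0.29 SE, limma adjusted p = 0.999), and the genotypes overlapped. It passed the study's threshold when lumbar heterozygote replicate 1 (0.84) or lumbar KO replicate 3 (0.83) was left out. *Col25a1* in the lumbar cord was at 2.12, 2.29 and 1.44 TPM in heterozygotes and 1.96, 0.985 and 1.74 TPM in KO libraries (−0.33 ± 0.31 SE). Class sums overlapped between the genotypes at both levels. For basement membrane collagens they were 90.3 ± 5.02 TPM in heterozygotes and 94.4 ± 3.66 TPM in KO at the brachial level (SD, n = 3), and 94.8 ± 6.45 and 100.4 ± 11.9 TPM at the lumbar level.

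Whether the genotype effect differed between the axial levels was tested as an interaction over the 12 libraries. None of 28 collagens passed at an adjusted p under 0.05 in limma, 0 had an unadjusted p under 0.05, and 0 of 16709 genes passed (742 genes, 4.44%, had an unadjusted p under 0.05). For *Col1a2* the interaction was −0.57 ± 0.34 SE (limma adjusted p = 0.805), and for *Col22a1* it was 0.52 ± 0.41 SE (limma adjusted p = 0.805). Of the lists of collagen partners, 1 of 6 tested fibril-associated matrix genes passed the study's threshold for genotype at the brachial level, and 0 of the 1 to 20 tested genes in each of the other lists, where 2.29% of all genes were higher and 0.822% lower; at the lumbar level 0 passed. Of the marker lists, *Sox6* (0.55), *Nkx6-1* (0.65) and the sensory ganglion marker *Prdm12* (0.97) passed as higher in brachial KO, and in lumbar KO the erythroid *Hba-x* (0.69) was higher and *Prph* (−0.78) lower. All 7 erythroid markers were above 0 in KO at both levels, with medians of 0.50 brachially and 0.54 in the lumbar cord. Their sums overlapped between the genotypes at both levels. The partner gene was *Fn1* (fibronectin), which was higher in brachial KO (0.73, limma adjusted p = 0.355) and whose highest value, 17.7 TPM, was in brachial KO replicate 3.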

How the data were processed

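Total RNA of ventral cord trimmed around Hb9::GFP was sequenced after ribosomal depletion (a stranded kit), in 12 libraries. Per the submitters' processing notes and the paper, the authors checked reads with FastQC 0.11.7, used Trimmomatic 0.38 for trimming and mapped to mm10 with HISAT2 2.1.0 and Bowtie2 2.3.4.1 and ran StringTie 2.1.3b on each library. The deposited TPM values are the authors' StringTie abundances, scaled to 1 total per library. The deposited FPKM values came from the same run of the authors, per gene length and mapped fragments. The deposited coverage values are the authors' mean per-base coverage of a gene. The annotation and the strand setting are not given in the sources used here. There are no counts, so the authors' DESeq2 comparison could not be repeated and the counting error of 1 library is unknown. Abundant small RNAs take a varying share of TPM, which moves the deposited values of all other genes.

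Identifiers were given symbols and coordinates from RefSeq GRCm38.p6, which held 45679 of 45777 and placed 96.4% (43 of the 44 collagens) at the same coordinates. Each library's TPM was divided by its size factor (median of ratios), and log2(TPM + 0.1) was fitted, for genes averaging 0.5 TPM or more, with limma 3.58.1 in R 4.3.3 (eBayes with a trend), with genotypes compared within each level (6 libraries) and levels over all 12 with genotype as a term. Fold changes are on that scale, which understates changes of low genes. Genotype calls use the study's threshold and all others a Benjamini-Hochberg adjusted p under 0.05. Depth is the most frequent ratio of coverage to FPKM. The fit was tested on simulated data. The other tools were Python 3.11.15, pandas 2.3.3, scipy 1.17.1 and matplotlib 3.10.9.

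Groups and replicate numbers are those of the labels. The study counts 3 animals per genotype, so the 2 levels may share embryos, which no label ties to a library. The p-values between levels take the 12 libraries as independent, and that would then not hold. The collagen genes, their classes and all other lists were chosen with earlier results of these data known. Values per library are given for collagens that passed a threshold, for the most abundant of each class and for chains of 1 trimer, and of each other list the genes past a threshold and up to 4 of the most abundant. Alternatives were other pseudocounts (0.01 and 1), filters, units, scalings, a fit without a trend, a replicate block, other sets of libraries and each library left out. Protein sequences were not used here.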

Additional observations from a re-analysis of the deposited data

How the results depend on the processing

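None of the 11 collagens that passed between levels changed the sign of its difference under the other settings or with a library left out. The sizes moved with the pseudocount. At a pseudocount of 1 the difference was −0.82 for *Col16a1*, 0.52 for *Col13a1* and −0.38 for *Col1a2*, against −1.43, 0.84 and −0.65 in the main fit. For genotype, the fit without a trend in eBayes called 1 collagen higher in brachial KO (*Col8a2*) and 1 lower in lumbar KO (*Col1a2*), where the other settings and the fits on fewer libraries gave 0, apart from higher calls in lumbar KO, which ranged from 0 to 1 with a library left out. Between levels, heterozygote libraries alone gave 1 higher and 2 lower collagens, and KO libraries alone 0 higher and 1 lower, each with 6 libraries in place of 12. With a library left out, 2 to 4 collagens were higher and 7 to 9 lower. *Col13a1* also lost its call with no filter (adjusted p = 0.0678) and with the values as deposited (0.0578), and *Col1a2* with no filter (0.0514). The median log2 difference of all genes, near 0 as reported, changed sign with the values as deposited, to 0.16 for brachial KO, 0.0018 for lumbar KO and −0.13 for lumbar against brachial. It also did so with no filter (0.0094 for brachial KO and −0.0052 between levels) and, between levels, in KO libraries alone (−0.0060). Whether replicate numbers pair the libraries could not be told. Correlations of the deviations of libraries with the same number ran from −0.21 to 0.34, and libraries of unlike number were not compared. With a replicate block, 2 collagens were higher and 7 lower between levels. *Col13a1* at a limma adjusted p of 0.0512 and *Col1a2* at 0.0638 did not pass, and no other call changed. Depth and 3 libraries per group limit the genes under 1 TPM most, and no test for outlying libraries was run on groups of 3.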
